A study of Mus musculus with 22 samples.

Results

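The genes described here code for the proteins that build, crosslink and cut the extracellular matrix of the heart, together with genes used as markers of fibrosis. The list held 35 symbols. They were chosen by name, but with earlier results of these data known. RefSeq accessions matched 34 of the 35 to at least 1 array probe, and Col6a3 was not matched. Of the 34 genes, 31 had a probe well above background on at least 5 of the 22 arrays and were tested among 15510 genes. The 3 that did not pass this filter were Tnc (tenascin C) and Fbln5 (fibulin 5), whose probes were well above background on 0 arrays, and Thbs1 (thrombospondin 1), for which 1 of 3 probes was above it on 3 arrays.

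Hearts came from female C57BL/6 mice bought at 5 to 7 weeks of age and acclimatised for 1 to 3 weeks. Each mouse received a single intratracheal instillation of 40 µl: the exposed mice were given 162 µg of nano-TiO2 (nanosized titanium dioxide), and the controls were given the vehicle, saline with a share of acellular lavage fluid. The 4 groups were control day 1 (5 mice), nano-TiO2 day 1 (5 mice), control day 28 (6 mice) and nano-TiO2 day 28 (6 mice). The comparisons ask whether a particle load in the airways changed matrix transcripts in the heart, and whether they differed between the days. Mice of day 28 were also older at collection, so age and time since the instillation cannot be told apart.

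Fibrillar collagens form the load-bearing network between heart muscle cells, and type IV collagen and nidogen form the sheet-like basement membranes around muscle cells and capillaries. Fibroblasts are the main source of the fibrillar collagens and small proteoglycans in the heart, whereas endothelial and muscle cells contribute much of the basement membrane. In fibrosis, transforming growth factor beta drives collagen synthesis, and matrix metalloproteinases and their tissue inhibitors, the TIMPs, set how fast the matrix is cut.

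Each array carried RNA of 1 mouse heart in Cy5 and a common reference RNA pooled from mouse cell lines in Cy3. Every level below is the log2 ratio of heart to reference for 1 probe per gene, so levels are compared between mice and never between genes. Differences of group means are also on the log2 scale, ± standard error (SE), and adjusted p comes from limma with Benjamini-Hochberg adjustment over all 15510 genes; a gene passed the test at an adjusted p below 0.05. In whole tissue, fewer cells of a type and less RNA per cell cannot be told apart. Replicate numbers follow the order of the sample list and are names from no label. Slides were shared, however: 6 of the slides at day 28 and 4 at day 1 held 1 control and 1 exposed mouse. Each such pair had the same replicate number. The fit with the slide as a block therefore compares mice within slides. It gave 0 genes past the threshold for nano-TiO2 against control on either day.

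The share of probes well above background in the heart channel ran from 32.8% to 52.8% over the arrays, no probe was saturated, and any pair of arrays had an r of 0.892 to 0.986 across genes. Although the protocol for RNA extraction names lung, the 7 cardiomyocyte markers averaged between 4.83 and 5.77 log2 above the reference in every mouse. The 4.83 came from control day 28 replicate 4, where 5 of the 7 were well above background and Myh6, a heart muscle gene, had no value. Hearts were cut into pieces, and 3 arrays (control day 1 replicate 2, nano-TiO2 day 1 replicate 1 and nano-TiO2 day 28 replicate 1) had a ratio of Sln, an atrial muscle gene, below 1 on the log2 scale, against 3.45 to 7.63 on the others. Each of these 3 arrays low in Sln had 4 of 6 atrial markers well above background, with summed ratios of 43.8, 40.8 and 38.5. The sum was 62.1 in control day 1 replicate 4 and 192 or more in every other mouse. Sln was not above background on the 3 arrays. Myl4, another atrial muscle gene, was above background there at log2 ratios of only -0.39, -0.36 and -0.31, against 1.11 to 5.65 on the others. Detection of a marker therefore does not show that atrial tissue was present. A further 5 arrays (control day 28 replicates 1, 3, 4 and 5, and nano-TiO2 day 1 replicate 2) held Apoa2 or Scgb1a1, transcripts of liver and airway, at a log2 ratio above 1. These 5 arrays were chosen by those 2 genes alone, and the arrays kept were not free of liver transcripts: the 5 liver markers summed to between 3.39 and 13.4 in the controls of day 1 and to 8.68 in nano-TiO2 day 28 replicate 3, against 103 on the highest of the 5 arrays and 8.56 on the lowest.

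No matrix gene passed the test between nano-TiO2 and control mice on either day. At day 1 the log2 differences of the 31 genes had a median of 0.17, against 0.014 for all genes tested, and 22 were above 0 and 9 below, where 54.2% of all genes were above 0; 0 of 31 passed, as did 0% of all genes. At day 28 the median was -0.09 against -0.0057 for all genes, with 8 above 0 and 23 below (48.1% of all genes above 0), and again 0 of 31 passed (0% of all genes). The difference between the day 28 and the day 1 effects had a median of -0.30 against -0.020 for all genes, with 8 above 0 and 23 below (45.8% of all genes above 0), and 0 of 31 passed (0% of all genes). Within the 4 slides shared by both arms at day 1, the medians of the 31 exposure differences were -0.13, -0.29, 0.54 and 0.34. Within the 6 shared slides at day 28 they were -0.22, 0.15, 0.34, -0.30, -0.43 and -0.32. The sign of the median thus differed between slides on both days, with 1 mouse per arm on each slide.

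In control hearts of day 28 against control hearts of day 1, 7 of 31 genes were higher past the threshold and none was lower, a share of 22.6% against 10.5% of all genes tested (7.03% of all genes higher and 3.44% lower). The 7 were the protease Mmp3, the collagen Col14a1, the elastic fibre gene Fbln1, the proteoglycan Lum, the inhibitors Timp1 and Timp2, and Postn. These calls depended on the fit. No matrix gene passed with normexp fitted on all spots, with median centring in place of loess, or without the 5 arrays with Apoa2 or Scgb1a1. With the slide as a block 0 passed as well, and the differences of the 7 genes were smaller. They were 0.92 for Mmp3 (adjusted p = 0.126), 1.30 for Col14a1 (adjusted p = 0.106) and 0.89 for Fbln1 (adjusted p = 0.129). Without the block they were 1.03, 1.42 and 1.03. Among other members, Col15a1 went from 0.36 without the block to 0.20 with it, while Col8a1 grew in size from -0.28 to -0.37. The median of the 31 differences was 0.36, against -0.0024 for all genes, and 22 of 31 were above 0 against 49.4% of all genes. Of all calls in this contrast 67.1% were higher. This share was 92.4% with normexp on all spots, 100% with median centring, 51.3% with Cy5 alone and 47.3% with the scanner log ratios. With all spots, the fitted Cy5 background SD was 132 in control day 1 replicate 3 and 97.1 in control day 28 replicate 2. It was 850 in nano-TiO2 day 28 replicate 4 and 1.17 to 2.15 on the other arrays. In nano-TiO2 hearts the same contrast of days gave 0 of 31 genes past the threshold (0% of all genes), with a median of 0.05 against -0.016 and with 20 of 31 above 0 against 44.4% of all genes. The comparisons share control mice: low values in control day 1 hearts enter both the contrast with control day 28 and the contrast with nano-TiO2 day 1.

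At an unadjusted p below 0.05 in limma, 5 of 31 matrix genes were higher and none lower at day 1, against 8.63% of all genes (6% higher, 2.64% lower). At day 28, 3 were higher and 2 lower, against 7.61% of all genes (2.22% higher, 5.39% lower). For the difference of effects, 1 was higher and 9 lower, against 14.7% of all genes (4.8% higher, 9.94% lower). In controls over time 19 were higher and 2 lower, against 25.4% of all genes (15% higher, 10.4% lower). In nano-TiO2 mice over time 1 was higher and none lower, against 4.5% of all genes (1.66% higher, 2.84% lower).

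**Figure D1:**
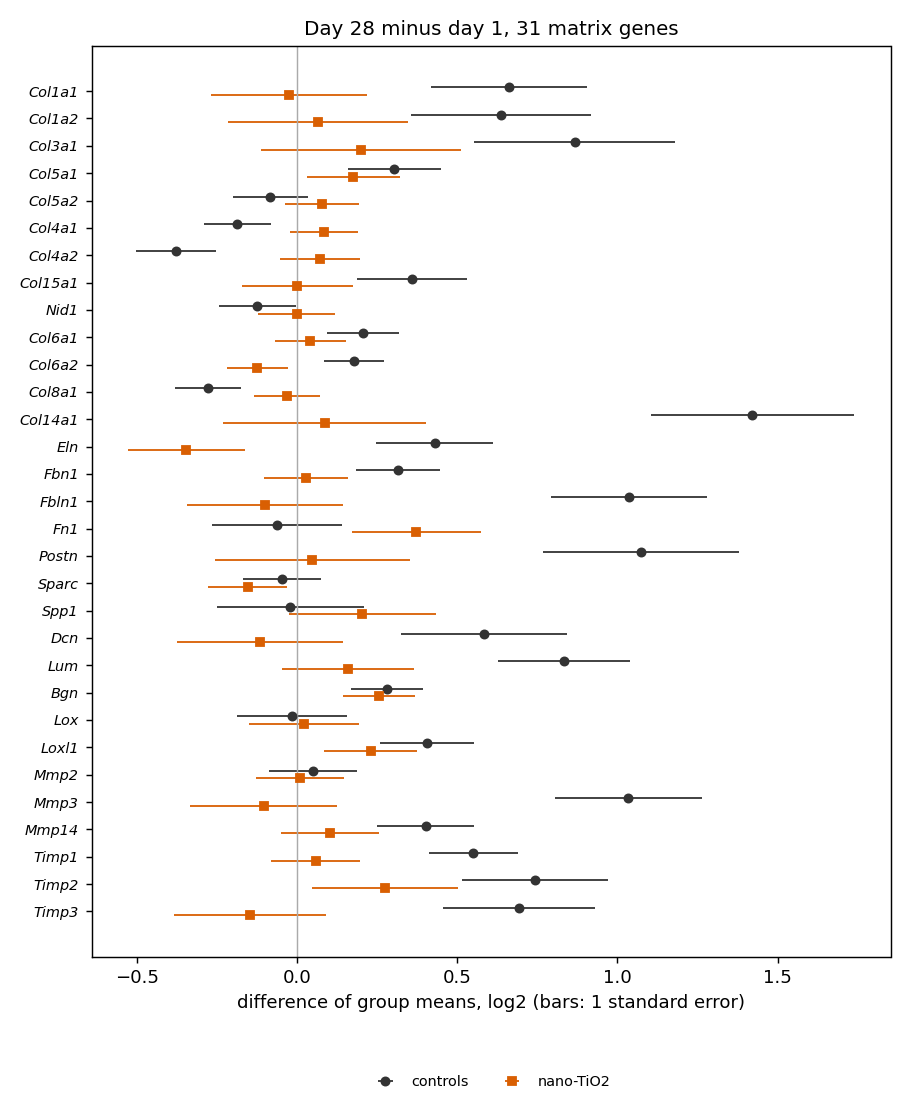
Log2 difference of day 28 minus day 1 (x axis, difference of group means with 1 standard error) for the 31 measured matrix genes (rows, ordered by role), in controls (circles) and in nano-TiO2 mice (squares). In controls 22 of 31 points lie above 0, up to 1.42 for Col14a1, and in nano-TiO2 mice all points lie between -0.35 and 0.37.

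Among the fibrillar collagens, Col1a1 codes for the main chain of type I collagen. Its levels were -3.06, -3.07, -3.03, -2.47 and -2.25 in the control mice of day 1 and -3.09, -2.09, -2.44, -1.49 and -2.52 in the nano-TiO2 mice of day 1. At day 28 the controls ran from -2.44 through a median of -2.18 to -1.76, and the nano-TiO2 mice from -3.13 through -2.21 to -1.93. The groups overlapped in every comparison, and both nano-TiO2 groups had their lowest value in the mouse low in Sln. The nano-TiO2 minus control difference was 0.45 ± 0.26 at day 1 (adjusted p = 0.612) and -0.24 ± 0.23 at day 28 (adjusted p = 0.84), or 0.57 (adjusted p = 0.389) at day 1 without the 3 arrays low in Sln, and controls differed by 0.66 ± 0.24 between the days (adjusted p = 0.0862). A second Col1a1 probe, also above background on 22 arrays, gave 0.03 for that last difference, so the probes of this gene did not give one value.

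Col1a2 supplies the partner chain of type I collagen. Control mice of day 1 had levels of -2.86, -3.07, -2.74, -2.27 and -1.96, and nano-TiO2 mice of day 1 had -3.37, -2.35, -2.13, -1.40 and -2.13. The day 28 controls spanned -2.25 to -1.40 with a median of -2.08, and the exposed mice -2.97 to -1.65 with a median of -2.08. Both day 28 groups thus had the same median, and the mean difference of -0.27 ± 0.27 (adjusted p = 0.843) was no larger than its error. Col3a1, the type III collagen chain, stood at -1.15, -1.29, -0.93, 0.01 and -0.09 in controls of day 1 and at -1.20, -0.23, -0.29, 0.82 and -0.48 in the exposed mice of that day. At day 28 its levels ran from -0.33 through 0.15 to 0.60 in controls and from -1.14 through 0.07 to 0.38 in exposed mice. In the day 1 controls the 3 mice with the lowest Col3a1 were also the 3 with the lowest Col1a1. Its day 28 minus day 1 difference in controls, 0.87 ± 0.31 or 1.82-fold, missed the threshold (adjusted p = 0.0785), and a second, dimmer probe above background on 6 arrays gave 0.00. The type V chains, which help to start collagen fibrils, differed from each other: Col5a1 differed by 0.30 (-0.13 with its second probe) and Col5a2 by -0.08 in controls over time.

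Type IV collagen of basement membranes is built from the Col4a1 and Col4a2 chains, whose genes lie head to head. In the RefSeq annotation (GRCm38.p6) the start of Col4a2 on the plus strand lies at chr8:11312805 and that of Col4a1 on the minus strand at chr8:11312826, so both first exons begin within the same 22 bases. This stretch, on the plus strand at chr8:11312805-11312826, is shown because both genes start in it and both were measured:
Col4a1-Col4a2 shared start: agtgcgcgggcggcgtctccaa

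Col4a1 levels were 1.80, 1.26, 1.83, 1.61 and 1.31 in controls of day 1 and 1.53, 1.87, 1.48, 1.30 and 1.53 in nano-TiO2 mice of day 1. At day 28 controls ran from 1.16 through 1.39 to 1.54 and nano-TiO2 mice from 1.57 through 1.63 to 1.66, so every exposed mouse lay above every control. Such a separation upward at day 28 was seen for 1 of 31 matrix genes and for 0.0457% of the genes measured on all arrays, and a separation downward for 0 of 31 and 0.0718%. The difference was 0.25 ± 0.10, or 1.19-fold, and did not pass the test (adjusted p = 0.635). The second Col4a1 probe gave 0.13 for the same contrast.

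Col4a2 stood at 1.39, 1.04, 1.23, 0.88 and 0.83 in controls of day 1 and at 0.89, 1.10, 0.84, 0.52 and 1.20 in nano-TiO2 mice of day 1. Controls of day 28 spanned 0.29 to 1.00 with a median of 0.68, and nano-TiO2 mice of day 28 spanned 0.89 to 1.08 with a median of 0.99. Exposed and control mice of day 28 overlapped here. The day 28 effect was 0.29 ± 0.12 (adjusted p = 0.635), and controls were lower at day 28 than at day 1 by a difference of -0.38 ± 0.13 that narrowly missed the threshold (adjusted p = 0.0559). The second Col4a2 probe gave -0.07 for the latter. Col15a1, a collagen of the basement membrane zone, differed in controls over time by 0.36 (adjusted p = 0.196), and Nid1, the nidogen that links laminin to type IV collagen, by -0.12 (adjusted p = 0.567).

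**Figure D2:**
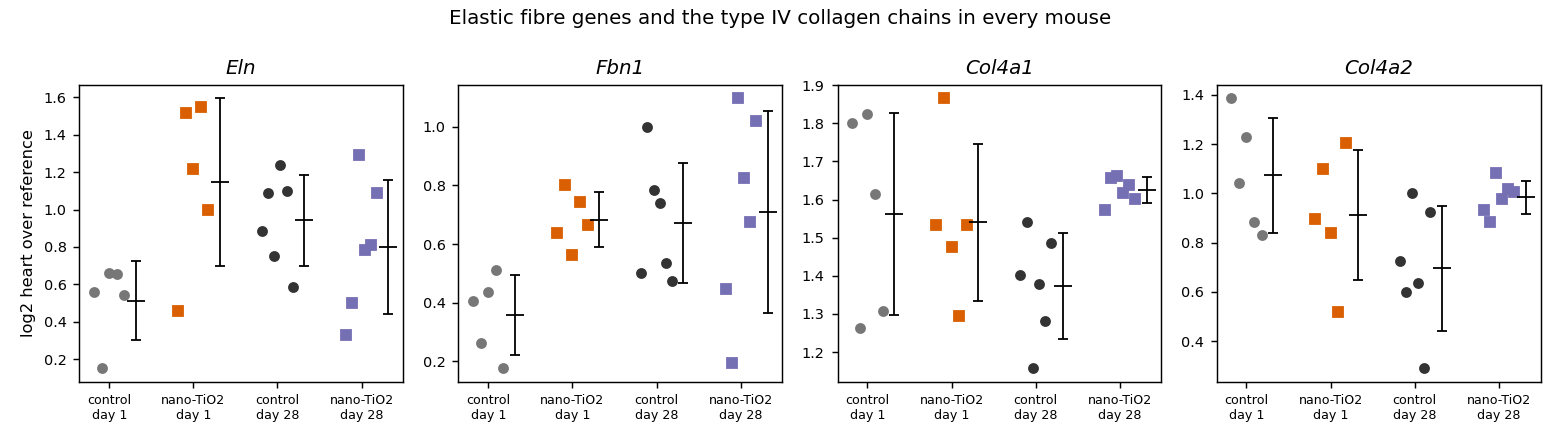
Log2 ratio of heart to reference (y axis) of Eln, Fbn1, Col4a1 and Col4a2 in each mouse (points) of the 4 groups (x axis), with group mean and SD as bars. Fbn1 is higher in all nano-TiO2 mice of day 1 than in all controls of day 1, and Col4a1 is higher in all nano-TiO2 mice of day 28 (1.57 to 1.66) than in all controls of day 28 (1.16 to 1.54).

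Of the other collagens, Col14a1 codes for a collagen that sits on the surface of collagen fibrils and had the largest time difference of the list. Control hearts of day 1 lay at 1.56, 1.42, 1.77, 1.75 and 1.84, and those of day 28 ran from 2.51 through 3.13 to 3.58, with no overlap. The difference was 1.42 ± 0.32, or 2.68-fold (adjusted p = 0.00811). Nano-TiO2 hearts lay at 1.25, 2.58, 2.55, 3.22 and 2.13 at day 1 and from 1.24 through 2.62 to 3.36 at day 28. In each exposed group the lowest mouse was the one low in Sln. Nano-TiO2 minus control was 0.68 ± 0.33 at day 1 (adjusted p = 0.577) and -0.66 ± 0.30 at day 28 (adjusted p = 0.648). Without the 3 arrays low in Sln these were 0.89 (adjusted p = 0.211) and -0.42 (adjusted p = 0.999).

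Col8a1, a short-chain collagen of vessel walls, went the other way in controls, from -1.36, -1.48, -1.40, -1.40 and -1.24 at day 1 to a span of -1.88 to -1.33 with a median of -1.69 at day 28. That difference was -0.28 ± 0.10 (adjusted p = 0.0839). Exposed mice had -1.70, -1.25, -1.43, -1.32 and -1.12 at day 1 and ran from -1.53 through -1.41 to -1.25 at day 28. Col8a1 had the smallest p of the list for nano-TiO2 against control at day 28, with a difference of 0.26 ± 0.10 and an adjusted p of 0.635. A second, dimmer Col8a1 probe, above background on 15 arrays, gave 0.05 for this contrast and -0.28 in controls over time. The type VI chains Col6a1 and Col6a2, which form beaded filaments around cells, differed by 0.22 each at day 1 (adjusted p = 0.6 and 0.547) and by 0.06 and -0.08 at day 28.

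Elastic fibres consist of an elastin core on fibrillin microfibrils, and none of their 3 measured genes passed the test at day 1 (adjusted p = 0.478 to 0.512), although each was higher at an unadjusted p below 0.05, as were 6% of all genes. Eln, which codes for elastin, stood at 0.56, 0.15, 0.66, 0.65 and 0.54 in controls of day 1 and at 0.46, 1.52, 1.22, 1.55 and 1.00 in nano-TiO2 mice of that day. Of the 5 exposed mice, 4 lay above every control, and the fifth, the one low in Sln, lay at 0.46. The difference of 0.63 ± 0.19, or 1.55-fold, had the smallest p of the list at day 1 and did not pass the test (adjusted p = 0.478), nor did the 0.72 without the 3 arrays low in Sln (adjusted p = 0.0615). At day 28 controls ran from 0.58 through 0.99 to 1.24 and exposed mice from 0.33 through 0.80 to 1.29, a difference of -0.14 ± 0.17.

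Fbln1 codes for fibulin 1, which binds elastin and fibronectin. Its control levels were 1.44, 1.48, 1.76, 1.23 and 1.45 at day 1 and ran from 2.21 through 2.47 to 2.91 at day 28 without overlap, a difference of 1.03 ± 0.24 or 2.05-fold (adjusted p = 0.0103). The second probe gave 0.92. Nano-TiO2 hearts lay at 1.49, 2.53, 2.27, 2.93 and 1.82 at day 1 and from 1.22 through 2.27 to 2.76 at day 28. The ranges of both exposed groups overlapped those of both control groups. The day 1 effect was 0.74 ± 0.25 (adjusted p = 0.478), or 0.92 without the 3 arrays low in Sln (adjusted p = 0.104). Fbn1, the fibrillin of the microfibrils, was the 1 gene of 31 whose day 1 groups did not overlap, with controls from 0.18 to 0.51 and exposed mice from 0.56 to 0.80; 1.28% of genes measured on all arrays separated upward in this way and 0.431% downward, where no matrix gene did. Its difference of 0.32 ± 0.14 did not pass the test (adjusted p = 0.512).

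Among the adhesive and matricellular proteins, Postn codes for periostin, a product of activated fibroblasts. Control hearts had levels of 1.15, 0.77, 1.24, 1.58 and 2.09 at day 1 and ran from 2.06 through 2.44 to 2.96 at day 28. A single mouse, control day 1 replicate 5, overlapped the later group. The difference was 1.07 ± 0.31, or 2.10-fold (adjusted p = 0.0275). Exposed hearts had 0.73, 2.03, 2.11, 2.53 and 1.66 at day 1 and 0.62 through 2.11 to 2.40 at day 28, so the exposed groups covered nearly the same range on both days. Leaving out 1 mouse at a time, the call for Postn was lost in 6 of 22 refits, with differences from 0.92 to 1.25.

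Fn1 codes for fibronectin, the adhesive glycoprotein to which many cells attach. It stood at -2.38, -2.28, -2.22, -1.85 and -1.64 in controls of day 1, at -3.09, -2.72, -2.11, -1.94 and -2.08 in nano-TiO2 mice of day 1, and from -2.97 through -1.94 to -1.85 and from -2.14 through -2.02 to -1.80 in the control and exposed mice of day 28. The groups overlapped throughout, with a day 1 effect of -0.31 ± 0.21 (adjusted p = 0.678), which turned to 0.16 when Cy5 was used alone, and a day 28 effect of 0.12 ± 0.19 (adjusted p = 0.901). Spp1 codes for osteopontin, a marker of inflammatory macrophages and of fibrosis. Its levels were far below those of the reference pool, at -8.57, -8.21, -8.80, -7.60 and -7.28 in controls and -8.47, -8.20, -8.53, -8.24 and -7.97 in exposed mice of day 1. At day 28 they ran from -8.75 through -8.13 to -7.54 in controls and from -8.44 through -7.97 to -7.84 in exposed mice. The Spp1 difference was -0.19 at day 1 (95% interval -0.68 to 0.31) and 0.04 at day 28 (95% interval -0.42 to 0.49). Sparc, a collagen-binding matricellular protein, differed by 0.06 and -0.04 on the same days.

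The small leucine-rich proteoglycans coat collagen fibrils and control their width. Lum, which codes for lumican, lay at 5.05, 4.62, 5.19, 5.17 and 5.55 in controls of day 1 and from 5.62 through 6.01 to 6.19 in controls of day 28, with no overlap. That difference was 0.83 ± 0.21, or 1.78-fold (adjusted p = 0.0137). Exposed mice had 4.67, 5.57, 5.84, 5.81 and 5.26 at day 1 and ran from 4.82 through 5.63 to 6.01 at day 28. Dcn (decorin) differed in controls over time by 0.58 ± 0.26 without passing (adjusted p = 0.159).

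Bgn (biglycan) was the 1 matrix gene below an unadjusted p of 0.05 over time in exposed mice. It had levels of -1.43, -1.04, -0.85, -0.94 and -1.06 at day 1 and from -0.97 through -0.80 to -0.66 at day 28, a difference of 0.25 ± 0.11 (adjusted p = 0.906). Controls had -1.04, -1.12, -1.03, -1.06 and -0.73 at day 1 and ran from -1.11 through -0.69 to -0.40 at day 28, a difference of 0.28 ± 0.11 (adjusted p = 0.118). The time differences of Bgn were therefore of like size in both arms.

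Lox and Loxl1 code for the enzymes that crosslink collagen and elastin. Lox was dim: its probe was well above background on 14 of 22 arrays, with 1 of 5 in controls of day 1, 4 of 5 in exposed mice of day 1, 5 of 6 in controls of day 28 and 4 of 6 in exposed mice of day 28. Levels were -3.05, -3.06, -3.33, -2.34 and -2.43 in controls and -2.92, -2.67, -3.18, -2.84 and -2.79 in exposed mice of day 1. At day 28 they ran from -3.48 through -2.78 to -2.54 and from -3.20 through -2.76 to -2.73. No group stood apart, and the exposure differences were -0.04 (95% interval -0.41 to 0.33) at day 1 and -0.00 (95% interval -0.34 to 0.34) at day 28. Loxl1 differed by 0.40 ± 0.15 in controls over time (adjusted p = 0.0771) and by 0.23 ± 0.15 in exposed mice.

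Proteases and their inhibitors held 3 of the 7 genes past the threshold in controls over time. Of the 7, Mmp3, Timp1, Timp2, Postn and Fbln1 had a promoter in the RefSeq table. It is shown for the protease, both inhibitors and Postn, to set side by side genes called in the same contrast. The windows are the 250 bases before the outermost start in GRCm38.p6, at chr9:7445572-7445821 (plus strand), chrX:20869916-20870165 (plus), chr11:118355412-118355661 (minus) and chr3:54359017-54359266 (plus). They are written 5′ to 3′, with capitals on matches of either strand to the AP-1 motif TGANTCA, the TATA box TATAAA, the CCAAT box CCAAT and the GC box GGGCGG.
Mmp3: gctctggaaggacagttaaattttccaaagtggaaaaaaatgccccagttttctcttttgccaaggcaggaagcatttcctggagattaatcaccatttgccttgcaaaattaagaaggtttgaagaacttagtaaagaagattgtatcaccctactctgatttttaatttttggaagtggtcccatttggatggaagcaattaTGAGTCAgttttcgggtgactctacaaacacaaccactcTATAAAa
Timp1: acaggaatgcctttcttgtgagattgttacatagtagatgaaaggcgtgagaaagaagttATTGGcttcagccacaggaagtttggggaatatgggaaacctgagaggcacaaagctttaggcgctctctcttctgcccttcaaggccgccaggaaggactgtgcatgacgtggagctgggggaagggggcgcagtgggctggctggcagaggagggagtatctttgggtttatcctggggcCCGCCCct
Timp2: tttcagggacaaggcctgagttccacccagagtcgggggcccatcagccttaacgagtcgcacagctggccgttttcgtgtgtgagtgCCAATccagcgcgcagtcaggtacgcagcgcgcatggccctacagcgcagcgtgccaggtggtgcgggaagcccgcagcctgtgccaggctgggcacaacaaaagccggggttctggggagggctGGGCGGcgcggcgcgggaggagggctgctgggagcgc
Postn: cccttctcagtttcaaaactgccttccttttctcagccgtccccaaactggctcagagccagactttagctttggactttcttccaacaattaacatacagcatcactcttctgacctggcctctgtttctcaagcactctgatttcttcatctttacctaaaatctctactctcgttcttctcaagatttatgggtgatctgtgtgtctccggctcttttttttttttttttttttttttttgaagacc

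In Mmp3 the AP-1 letters began 46 bases and the TATA box 7 bases before the start. The AP-1 letters occurred in 6.75% of 32851 windows of that length in the table and in 2 of the 24 matrix genes with a window, and the TATA box in 12.4% of all windows and in 5 of the 24. Timp1 and Timp2 each had a CCAAT box and a GC box, which occurred in 33.8% and 32.7% of all windows and in 9 and 15 of the 24. The Postn window shown held no match to the 4 motifs, which says only that these letters are not in it; the window of a second Postn start held a TATA box. Counts over the 24 genes take any of a gene's windows. Nothing was measured at the promoters themselves, and the matches are descriptions.

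Mmp3 codes for stromelysin 1, which cuts proteoglycans and activates other proteases. Control hearts had levels of -1.82, -2.00, -2.01, -1.55 and -1.51 at day 1 and from -1.32 through -0.82 to -0.16 at day 28, with no overlap. The difference was 1.03 ± 0.23, or 2.05-fold (adjusted p = 0.00779), the smallest adjusted p of the list. Exposed hearts had -1.83, -0.73, -0.93, -0.79 and -1.47 at day 1 and ran from -1.94 through -1.26 to -0.60 at day 28. Nano-TiO2 minus control was 0.63 ± 0.24 at day 1 (adjusted p = 0.494) and -0.51 ± 0.22 at day 28 (adjusted p = 0.641), and without the 3 arrays low in Sln 0.74 (adjusted p = 0.212) and -0.37 (adjusted p = 0.999). The difference between these effects, -1.14 ± 0.32, had the smallest p of the list in that contrast and did not pass (adjusted p = 0.125).

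Timp1, an inhibitor that rises in many forms of tissue injury, stood at -3.38, -3.28, -3.49, -2.78 and -2.58 in controls of day 1 and ran from -2.68 through -2.57 to -2.40 in controls of day 28. Control day 1 replicate 5 overlapped the later group. The difference was 0.55 ± 0.14, or 1.46-fold (adjusted p = 0.015). A second Timp1 probe, above background on 22 arrays, gave 0.00 (adjusted p = 0.998), and the mean of both probes gave 0.27 (adjusted p = 0.112), so the call rests on 1 probe. Exposed mice had -3.13, -2.60, -2.91, -2.57 and -2.88 at day 1 and -3.02 through -2.77 to -2.49 at day 28, with exposure effects of 0.29 ± 0.14 (adjusted p = 0.585) and -0.21 ± 0.13 (adjusted p = 0.734).

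Timp2, which also takes part in activating pro-MMP2, ran from -1.36 to -0.33 in controls of day 1 and from -0.44 to 0.23 in controls of day 28, with 1 mouse overlapping, a difference of 0.74 ± 0.23 or 1.67-fold (adjusted p = 0.039). Its call was lost in 8 of the 22 refits without 1 mouse. Timp3, the inhibitor bound to the matrix, separated the control groups without overlap (-0.42 to 0.21 against 0.42 to 0.79) but missed the threshold at a difference of 0.69 ± 0.24 (adjusted p = 0.0635). In all, 5 of 31 matrix genes (Col14a1, Timp3, Mmp3, Lum and Fbln1) were higher without overlap in controls of day 28, against 4.68% of genes measured on all arrays, and none was lower without overlap, against 2.3%. In exposed mice over time 0 of 31 separated either way, against 0.307% upward and 0.457% downward. The proteases Mmp2 and Mmp14 differed over time in controls by 0.05 ± 0.14 and 0.40 ± 0.15 (adjusted p = 0.873 and 0.0956). A second, dimmer Mmp14 probe, above background on 8 arrays, gave -0.03.

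**Figure D3:**
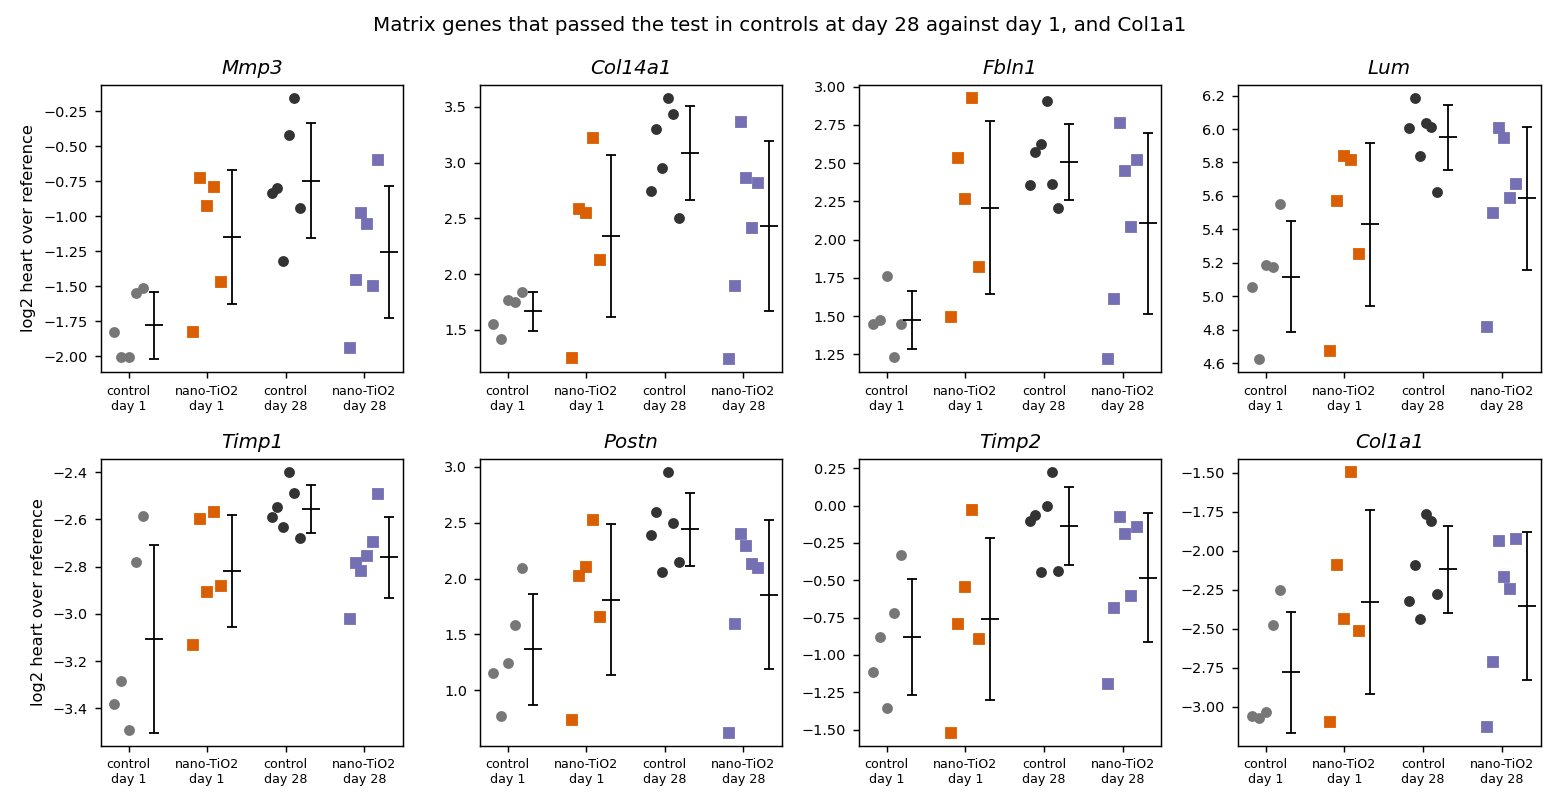
Log2 ratio of heart to reference (y axis) of the 7 matrix genes past the threshold in controls over time, and of Col1a1, in each mouse (points) of the 4 groups (x axis), with group mean and SD as bars. Controls of day 1 lie low and controls of day 28 high for the 7 genes, and the nano-TiO2 mice of both days overlap both control groups in range, with Col14a1 from 1.24 to 3.36 at day 28.

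**Figure D4:**
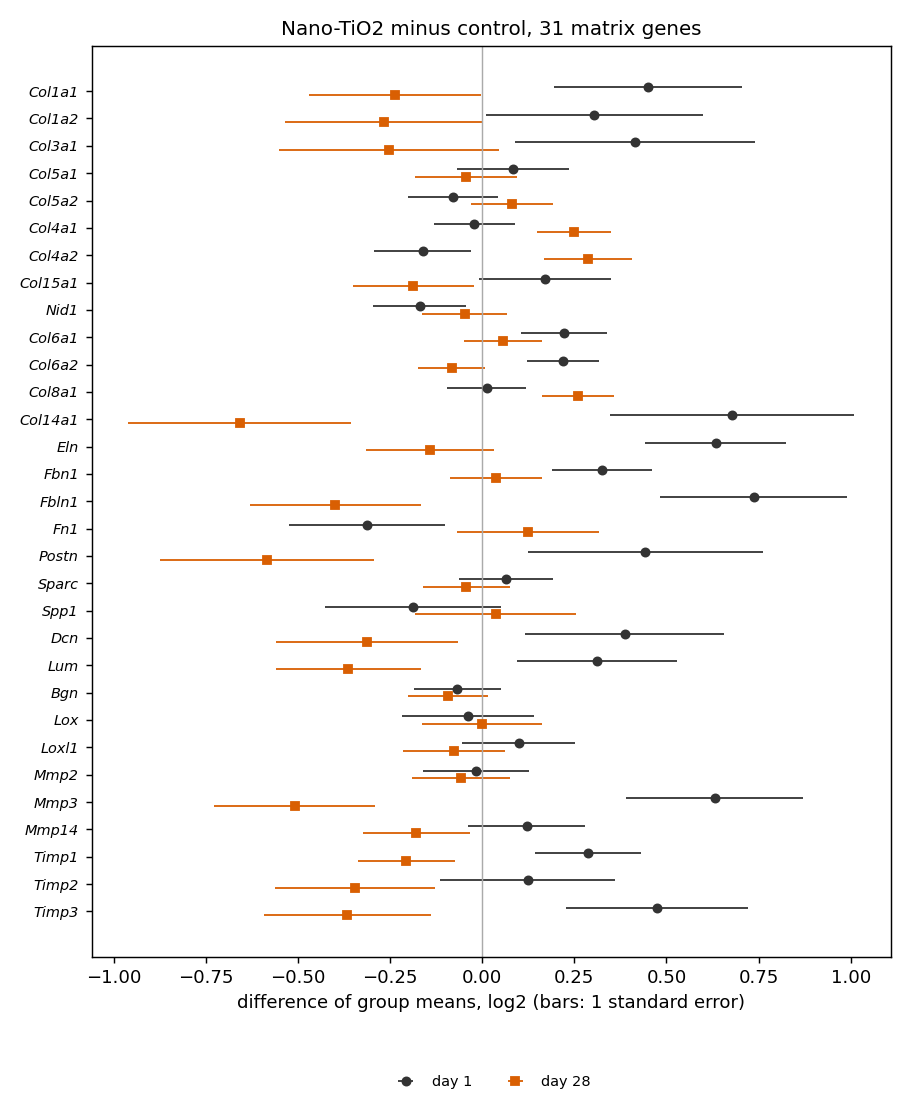
Log2 difference of nano-TiO2 minus control (x axis, difference of group means with 1 standard error) for the 31 matrix genes (rows, ordered by role) at day 1 (circles) and at day 28 (squares). At day 1, 22 of 31 points lie above 0, up to 0.74 for Fbln1, and at day 28, 23 lie below 0, down to -0.66 for Col14a1; none passed the test.

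The difference of effects was -1.14 ± 0.34 for Fbln1 (adjusted p = 0.138), -0.78 ± 0.26 for Eln (adjusted p = 0.165), -1.34 ± 0.45 for Col14a1 (adjusted p = 0.17) and 0.45 ± 0.18 for Col4a2 (adjusted p = 0.24). None passed the test on the whole set of mice. Without nano-TiO2 day 1 replicate 1, an array low in Sln and with the lowest value of its group in 25 of 31 matrix genes, 4 of them passed: Mmp3 at -1.31 (adjusted p = 0.0328), Eln at -0.95 (adjusted p = 0.036), Fbln1 at -1.31 (adjusted p = 0.042) and Col14a1 at -1.61 (adjusted p = 0.0462). In that refit 311 of all genes passed, against 0 with all mice. Without all 3 arrays low in Sln, 95 genes and 0 matrix genes passed.

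In the control contrast over time, the slide as a block left 0 of all genes past the threshold. Within the 3 slides that held a control of both days the medians of the 31 differences were 0.24, 0.28 and 0.50. With the scan day as a block 12 matrix genes passed, and the medians within the 3 scan days were 0.42, 0.42 and 0.22. Without the 5 arrays with Apoa2 or Scgb1a1, which leaves 2 controls of day 28, the median was 0.32, with Mmp3 at 0.91 (adjusted p = 0.285) and Col14a1 at 1.24 (adjusted p = 0.332). Without the 3 arrays low in Sln, 8 matrix genes passed and the median was 0.30. When 1 mouse was left out at a time, between 5 and 11 matrix genes passed (11 without control day 28 replicate 3), and Mmp3, Col14a1, Fbln1, Lum and Timp1 passed in all 22 refits.

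Markers of other cells in the heart pieces also differed between the groups. In controls of day 28 against day 1 the mean log2 ratio was higher by 0.43 over 11 of 11 fibroblast markers that hold no matrix gene of the list, by 1.13 over 8 of 8 smooth muscle and mural markers, by 1.25 over 7 of 7 mesothelial markers, by 2.10 over 6 of 6 atrial markers and by 3.86 over 7 of 8 adipocyte markers. Macrophage markers (8 of 9) were higher by 0.74, while cardiomyocyte markers (7 of 7) were lower, at -0.37, and endothelial markers (7 of 7) stood at -0.10. Cardiomyocyte values that use controls of day 28 include the 4.83 of control day 28 replicate 4, where Myh6 had no value. The other controls of day 28 lay at 5.16 to 5.52. At day 1, nano-TiO2 minus control gave 0.22 for fibroblast, 0.85 for smooth muscle, 1.24 for atrial and 2.35 for adipocyte markers, and at day 28 it gave -0.23, -0.53, -0.84 and -1.75. Without the 3 arrays low in Sln these 4 values were 0.29, 1.01, 1.56 and 2.93 at day 1 and -0.16, -0.38, -0.21 and -1.28 at day 28. The fibroblast, smooth muscle, atrial and adipocyte values had the sign of the median matrix gene in these 3 comparisons. Mesothelial and macrophage values also had it, at 0.64 and 0.38 at day 1 and at -0.52 and -0.29 at day 28. Cardiomyocyte markers did not (-0.01 at day 1 and 0.19 at day 28). In exposed mice over time, fibroblast, smooth muscle and adipocyte markers did not either, at -0.03, -0.24 and -0.24 against 0.05 for the median matrix gene. There cardiomyocyte and endothelial markers stood at -0.17 each, and atrial, mesothelial and macrophage markers had its sign, at 0.02, 0.08 and 0.07. The part of these cells in the matrix differences was not tested.

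The summed ratios of the markers well above background show how the mice spread. Adipocyte sums ran from 0 to 42.7 in controls of day 1, from 1.91 to 554 in exposed mice of day 1, from 118 to 798 in controls of day 28 and from 1.55 to 562 in exposed mice of day 28, and Adipoq, a defining adipocyte gene, was above background in 1, 4, 6 and 5 mice of these groups. Atrial sums spanned 43.8 to 457, 40.8 to 545, 414 to 491 and 38.5 to 463 in the same order. Fibroblast sums spanned 26.9 to 34.2, 25.4 to 47.2, 36.5 to 52.0 and 24.9 to 42.3, so the fibroblast markers of the 2 control groups did not overlap either. Smooth muscle and mural sums did not follow the mean log2 ratio of these markers. Their medians were 134.6 in controls and 135.5 in exposed mice of day 1, and 117.7 and 114.7 at day 28. A sum gives most weight to the markers with the highest ratios, and a mean log2 ratio weighs all markers alike. None of the 3 arrays low in Sln was a control of day 28. The arrays with the fewest probes above background, 32.8% and 33.3%, were control day 1 replicates 4 and 5, which had the highest values of their group for Col1a1, Timp1, Lox and Spp1; the part of detection in those values was not tested.

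Of the collagen chains that join in one molecule, the type I and type V pairs correlated past the threshold across the 22 mice, and the type IV and type VI pairs did not. After subtracting group means, Col1a1 and Col1a2 correlated at r = 0.929 (Spearman rho 0.922; two-sided permutation test with 100000 resamples, adjusted p = 6e-05 over 6 pairs and 3e-05 for rho), Col1a1 and Col3a1 at r = 0.955 (rho 0.937; permutation adjusted p = 6e-05 and 3e-05), and Col5a1 and Col5a2 at r = 0.801 (rho 0.807; permutation adjusted p = 0.00012 and 8e-05). Dcn and Lum, both proteoglycans, correlated at r = 0.714 (rho 0.753; permutation adjusted p = 0.00147 and 0.000285). The 2 pairs that missed the threshold were Col4a1 with Col4a2 at r = 0.469 (rho 0.434; permutation adjusted p = 0.0959 and 0.111), despite their shared start, and Col6a1 with Col6a2 at r = 0.095 (rho 0.206; permutation adjusted p = 0.695 and 0.38). The smallest unadjusted p that these resamples can give is 1e-05. Both pairs with Col1a1 used its brightest probe, and its second probe was not tested in them.

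Leaving out the 2 mice farthest from the median of the first gene gave r of 0.900, 0.928, 0.743, 0.698, 0.465 and 0.205 for these pairs in that order. Within the 3 scan days, Col1a1 and Col1a2 correlated at 0.974, 0.900 and 0.918, Col1a1 and Col3a1 at 0.970, 0.889 and 0.944, Col5a1 and Col5a2 at 0.769, 0.860 and 0.896, and Dcn and Lum at 0.481, 0.609 and 0.695. Col4a1 and Col4a2 gave -0.165, 0.589 and 0.695, and r ranged from 0.393 to 0.783 over the 4 pairs of their probes. Col6a1 and Col6a2 gave 0.211, 0.139 and -0.194. Without the 3 arrays low in Sln, r was 0.887 for Col1a1 with Col1a2, 0.929 for Col1a1 with Col3a1, 0.71 for the type V pair, 0.557 for Dcn with Lum, 0.504 for the type IV pair and 0.012 for the type VI pair. The fibrillar pairs stayed at 0.769 or more within each scan day, and the type IV and type VI pairs changed sign between days. With median centring in place of loess the type IV pair reached r = 0.924 and the type VI pair r = 0.885, both past the threshold, and Dcn with Lum lost it at r = 0.372 with normexp on all spots.

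**Figure D5:**
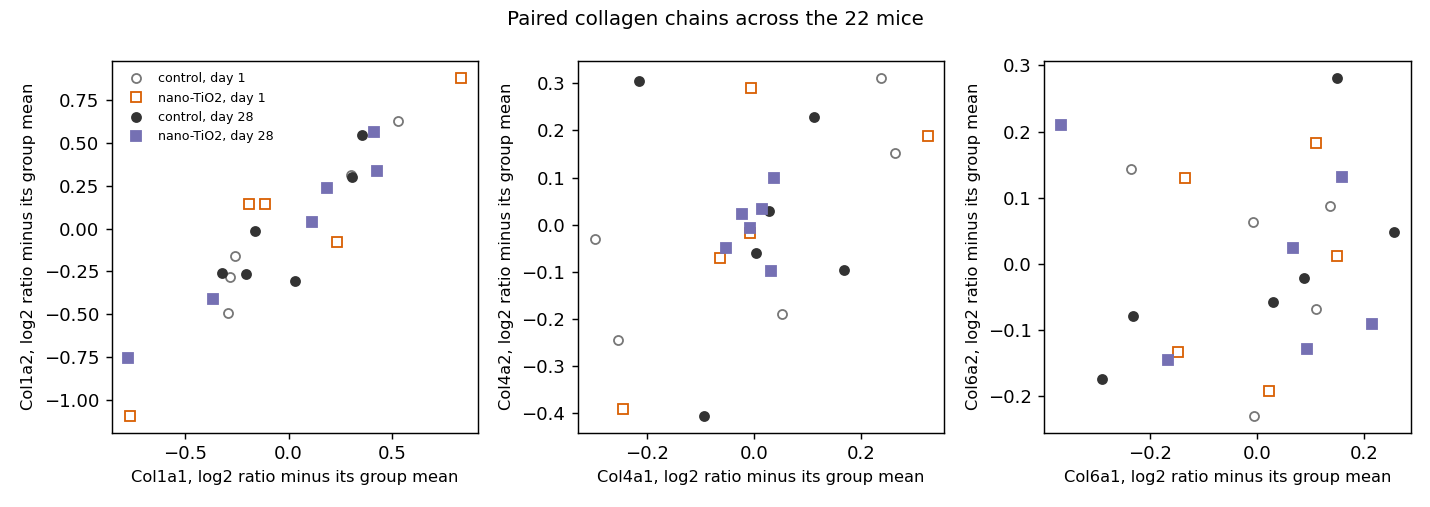
Log2 ratios minus their group mean for paired collagen chains, with each point 1 of 22 mice and its symbol the group (x and y axes, log2). Col1a1 and Col1a2 lie on a line (r = 0.929), whereas Col4a1 with Col4a2 (r = 0.469) and Col6a1 with Col6a2 (r = 0.095) scatter.

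Col1a1 served as the anchor for genes of like pattern across mice, by Pearson r over the 22 mice with group means subtracted and among 10344 genes with a symbol, as a description. Its closest non-members were Smo (r = 0.950), the transducer of hedgehog signals, Gsn (0.944), the actin-severing protein gelsolin, Tmed3 (0.938), Adamts2 (0.936), the protease that trims the amino end of procollagens, and Arrb1 (0.933), an arrestin. The median r of 30 matrix genes with Col1a1 was 0.75, against -0.01 for all genes, and 19 of the 30 exceeded 0.5. Postn (0.919), Timp2 (0.913) and Col14a1 (0.886) were near the top, and Col4a1 (-0.16) and Col4a2 (-0.46) were below 0. The points share array, signal and piece of tissue. All these values rest on the brightest Col1a1 probe. The second Col1a1 probe, which gave 0.03 against 0.66 in controls over time, was not correlated.

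Beyond the members, 98 of 124 listed genes of the same pathways were measured: ligands and their activation, receptors and signal, targets of transforming growth factor beta, collagen synthesis, and other matrix genes. Between nano-TiO2 and control 0 of 98 passed on either day, and 0 passed for the difference of effects. In controls over time 30 were higher and 1 lower past the threshold, 31.6% of the list against 10.5% of all genes, and in exposed mice over time 0 passed. The calls in controls became 0 higher and 0 lower with the slide as a block and without the 5 arrays with Apoa2 or Scgb1a1, 4 higher with median centring and 6 higher with normexp on all spots. Smooth muscle and mural markers, of which Acta2 and Tagln are also on this list, were higher by 1.13 in the same contrast. That value is their mean log2 ratio, and the median of their summed ratios was not higher. Their part in these calls was not tested. By group, 2 of 14 ligands, 5 of 23 receptors, 5 of 8 target genes, 4 of 14 collagen synthesis genes and 14 of 39 other matrix genes were higher, and 1 collagen synthesis gene was lower.

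The 3 pathway genes with the smallest p in controls over time were Itga8, an integrin subunit of fibroblasts and smooth muscle, at 3.08 ± 0.47 (adjusted p = 0.00261), Efemp1, a fibulin, at 1.89 ± 0.33 (adjusted p = 0.00271), and Mmp23, a membrane-linked protease, at 0.82 ± 0.14 (adjusted p = 0.00278). At day 1 the smallest p belonged to Tagln, a contractile smooth muscle gene, at 1.80 (adjusted p = 0.475), Itga8 at 1.90 (adjusted p = 0.475) and Ltbp3, which holds latent growth factor, at 0.45 (adjusted p = 0.478). At day 28 they belonged to Itga8 at -1.38, Thbs3 at -0.39 and Col18a1 at -0.75 (adjusted p = 0.635 each). For the difference of effects Itga8 at -3.27 (adjusted p = 0.0734), Tagln at -2.86 (adjusted p = 0.102) and Thbs3 at -0.86 (adjusted p = 0.118) led, and in exposed mice over time Serpinh1, the collagen chaperone, at -0.38, Itga11 at -0.46 and Pdgfrb at -0.17 (adjusted p = 0.906 each).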

How the data were processed

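Heart RNA of 22 mice was measured on Agilent 2-colour arrays, with heart RNA in Cy5 and reference RNA in Cy3 and no dye swap per the labels. The deposited scanner files hold median intensities of spots and of local background, neither subtracted nor normalized. Their log10 ratios come, per the file headers, from Agilent Feature Extraction 10.7.3.1; the submitters' processing notes give 9.5.3.1. A series matrix with the authors' log2 values was also deposited, and how they were made is not given in the sources used here.

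Background was corrected by normexp (offset 50, fitted without spots marked as uneven), followed by loess within arrays with limma 3.58.1 in R 4.3.3. The offset pulls log2 ratios of dim spots towards 0. Flagged spots, 0.299% in all, received no value. Probes well above background on at least 5 of 22 arrays were kept (19281), and the brightest kept probe stood for its gene, with symbols from RefSeq accessions. Differences came from limma with group means, eBayes and Benjamini-Hochberg adjustment over 15510 genes, threshold 0.05, tested on simulated data. The simulated data had independent noise for each gene and array, with no effect of slide, scan day or piece of tissue. They cannot show how such effects bear on the calls. Correlations used 100000 permutations. Values by mouse at day 1, and the lowest, median and highest at day 28, were given for 12 chosen members and the 3 with the smallest p per comparison; those of Lum, and the detail on Timp2, Timp3 and Fbn1, were added after their values were seen. Likewise the 3 pathway genes with the smallest p per comparison and the 5 genes most like Col1a1 were named. The 17 alternatives changed background, normalization, filter, probe choice, model or block, each mouse was left out in turn, and 2 alternatives were added after seeing the data. The members and lists were chosen with earlier results of these data known. Promoters came from the RefSeq table of GRCm38.p6. Figures used Python 3.11.15 with matplotlib 3.10.9. The number of arrays limits the precision.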

Additional observations from a re-analysis of the deposited data

Results flagged for a closer look

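In 124 sets of values (31 matrix genes in 4 groups), 3 held a mouse far from the rest of its group by Dixon's test at the 95% level, which chance gives in about 5% of sets. Mmp2 in nano-TiO2 day 1 replicate 1 lay at -0.93, with the next mouse at -0.34. Eln in control day 1 replicate 2 lay at 0.15 and was not well above background there, with the next mouse at 0.54. Both are arrays low in Sln, an atrial muscle gene. Bgn in control day 1 replicate 5 lay at -0.73, above the next mouse at -1.03.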

How the results depend on the processing

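Over 19 settings other than leaving out a mouse, 2855 of 2925 values of single matrix genes kept their side of the threshold without a reversal. Of the rest, 34 lost and 32 gained a call, and 4 reversed. A change of sign counted as a reversal only with a call in either fit, or with both differences at least as large as their SE. Other changes of sign were counted as kept, such as Col15a1 in controls over time, at 0.36 and at lowest -0.28. Among the reversals, Lox in controls over time was 1.59 with the scanner log ratios. Fn1 was 0.16 at day 1 and -0.23 for the difference of effects with Cy5 alone. Col5a1 in controls over time was -0.13 with its second probe. In controls over time, 1624 genes and 7 matrix genes became 79 and 0 with normexp on all spots. They became 87 and 0 with median centring, 3867 and 14 with scanner log ratios, and 2687 and 16 with array weights. The slide block gave 0 and 0, and the scan day block 1926 and 12. Without the 5 arrays with Apoa2 or Scgb1a1 they became 1 and 0. At day 1, 7 genes passed with scanner log ratios, 4 with array weights and 40 without the 3 arrays low in Sln; for the difference of effects 45, 90 and 95 did, and 6 with the scan day block. The median difference of effects was -0.60 with plain subtraction and -0.59 with median centring, which moved the median of all genes to 0.17 at day 1, -0.27 for the difference of effects, 0.13 in controls and -0.12 in exposed mice over time. Col4a1-Col4a2 gave r of 0.742, 0.924 and 0.535, and Col6a1-Col6a2 0.614, 0.885 and 0.541, with normexp on all spots, median centring and scanner log ratios, all past the threshold. Col6a1-Col6a2 gave -0.0753 with the series matrix and -0.171 without the 5 arrays, and Dcn-Lum 0.372 with normexp on all spots. The cause was not tested. Normexp on all spots is the setting whose fitted Cy5 background SD was 132, 97.1 and 850 on single arrays, against 1.17 to 2.15 on the others. The part of those arrays in its results was not tested. Leaving out 1 mouse gave 0 to 21 genes at day 1 (most without nano-TiO2 day 1 replicate 1), 0 to 3 at day 28 (without control day 28 replicate 6), 0 to 311 for the difference of effects, with 0 to 4 matrix genes (311 without nano-TiO2 day 1 replicate 1, 178 and 12 without nano-TiO2 day 28 replicates 3 and 6, 28 without control day 28 replicate 6), 957 to 2070 and 5 to 11 in controls over time (1058 and 957 without control day 1 replicates 1 and 2, 962 and 1067 without control day 28 replicates 4 and 5), r of 0.359 to 0.663 (without control day 28 replicate 3, adjusted permutation p = 0.0146) for Col4a1-Col4a2 and -0.0242 to 0.335 for Col6a1-Col6a2, where it was -0.00244 without control day 28 replicate 4. No paired analysis was possible by replicate number because the labels give none; the slide block, which sets mice of a slide against each other, gave 0 genes at day 1 and at day 28. Few arrays per group and dim probes such as Lox limit what could be seen.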
